A study of Homo sapiens with 6 samples.

Results

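The 92 genes described here are the nuclear-encoded subunits of the respiratory chain and ATP synthase, chosen by gene symbol and not by any measured value. The rule took protein-coding nuclear genes named SDHA to SDHD or CYC1, and those whose symbols begin with the NDUF (subunits only), UQCR, COX4 to COX8 or ATP5 prefixes. All 92 stood in both deposited tables, among the 56982 gene identifiers that the tables share. By complex, the rule found 37 genes of complex I, 4 of complex II, 10 of complex III, 19 of complex IV and 19 of complex V (ATP synthase). It also took ATP5S, a coupling factor that is not a structural subunit, and 2 read-through genes, NDUFC2-KCTD14 and ATP5MF-PTCD1. NDUFA4 and NDUFA4L2 were counted with complex IV, where NDUFA4 is known to sit despite its name. ATP5IF1, the inhibitor of ATP synthase, was counted with complex V.

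Complexes I and II pass electrons from NADH and succinate to coenzyme Q, complex III passes them on to cytochrome c, and complex IV passes them to oxygen. Complexes I, III and IV pump protons across the inner mitochondrial membrane, and ATP synthase makes ATP as the protons return. Most subunits are encoded in the nucleus and imported, and a few of complexes I, III, IV and V are encoded in the mitochondrial genome.

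U2OS, a human osteosarcoma line, was compared between unedited cells (WT) and an edited line, G3C2, in which ZFP36L1 had been targeted with CRISPR/Cas9 and which the labels call ZFP36L1 deficient. ZFP36L1 is an RNA-binding protein that binds AU-rich elements of mRNAs and promotes their decay. Poly(A) RNA of untreated cells growing in log phase at 65 to 75% confluency was sequenced in 6 libraries, 3 per genotype, labelled replicates 1, b and c. Replicate 1 of both genotypes stood in a first table of FPKM (fragments per kilobase of transcript, scaled to library depth), replicates b and c in a second. The position of the edit, and whether G3C2 grew from a single cell, are not given in the sources used here. With 1 edited line, the effect of the genotype and the properties of the line cannot be told apart.

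The second table held between 22614600 and 28977500 recovered reads per library, and the depth of the first is unknown. ZFP36L1 mRNA was listed at FPKM of 165, 57.1 and 128 in WT replicates 1, b and c and of 238, 105 and 82.4 in G3C2, so its transcript level does not check the genotype. Of the markers of the labelled cell type, SPARC (191 to 908 FPKM) and COL1A1 (82.1 to 899 FPKM) were abundant in all libraries, whereas COL1A2, ALPL and BGLAP stayed below 1 FPKM and IBSP was listed at 0. Defining markers of other cell types were at or near 0, with KRT19, CD3E, SOX10, MYH7 and DAZL at most 0.020 FPKM. Of the other listed markers, EPCAM stood higher, at 3.05 to 18.7 FPKM, and CDH1 and ACRBP reached 1.01 and 1.73 FPKM.

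None of the 81 members that could be tested passed the test between genotypes. The test was limma on log2(FPKM + 1) with terms for genotype and table, fitted to 15001 genes that reached 1 FPKM in 2 or more libraries, with Benjamini-Hochberg adjustment at 0.05. Over all tested genes it called 0.0467%, with 3 genes (0.02%) higher in G3C2 and 4 (0.0267%) lower. The lowest adjusted p of a member was 0.154, for NDUFB1 (limma). At an unadjusted p under 0.05, 7 members were higher in G3C2 and 0 lower, against a background of 6.19% and 7.43% of all tested genes. In 31 of 81 members the G3C2 value was higher in 3 of 3 replicate pairs (background 17.8%), and in 0 members it was lower in all of them (background 18.6%). The 81 tested members were 36 of complex I, all of complexes II and III, 12 of complex IV, 18 of complex V, and ATP5S. The untested 11 were 4 genes listed at 0 in all libraries and 7 with low values.

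Across the members, G3C2 and WT lay close together in replicates 1 and b and apart in replicate c. In bulk RNA, fewer cells with a transcript and less of it per cell cannot be told apart. The median difference of the 81 members, G3C2 minus WT on the log2(FPKM + 1) scale, was 0.08 in replicate 1, -0.01 in replicate b and 0.94 in replicate c. The same medians over 12152 tested protein-coding genes were -0.07, -0.01 and 0.10. In replicate c, 77 of 81 members were higher in G3C2, against 55% of all tested genes. At least 2-fold higher on this scale were 38 members, against 8.74% of all tested genes. At least 2-fold higher values were found in 2 members in replicate 1 (background 1.75%) and in 0 in replicate b (background 1.4%). The median fitted log2 fold change of the members was 0.32, smaller than the spread between the pair medians (SD 0.52, n = 3 pairs). Without the pair of c libraries it was 0.05, without WT replicate c alone 0.12, and without G3C2 replicate c alone 0.16.

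**Figure D1:**
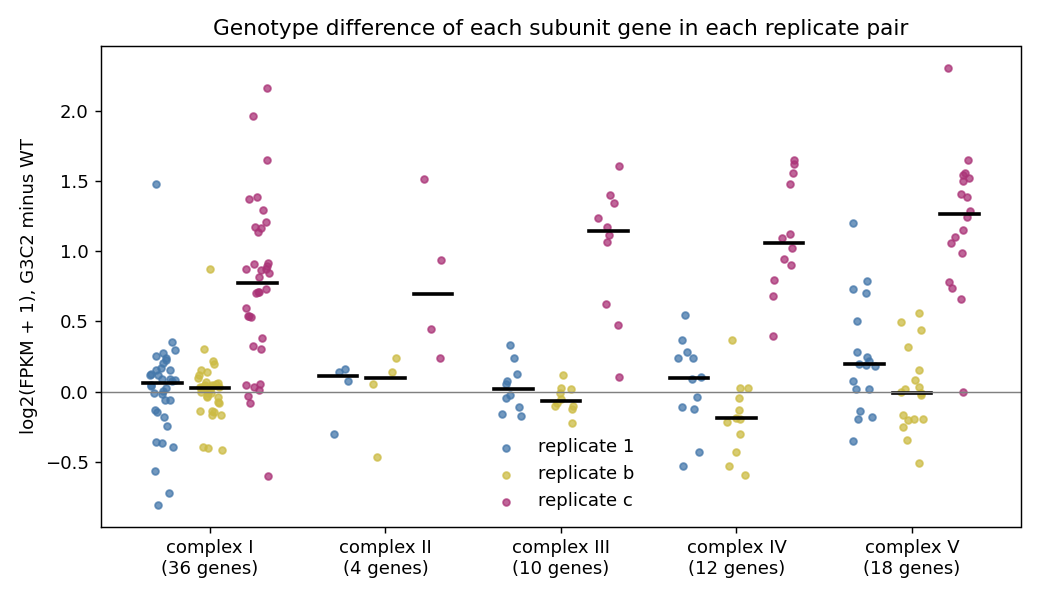
Each point is 1 tested subunit gene, with its difference in log2(FPKM + 1), G3C2 minus WT, on the vertical axis, by complex and by replicate pair, and bars are medians. The replicate c points of all 5 complexes lie mostly above 0, with medians from 0.69 in complex II to 1.27 in complex V, while medians in replicates 1 and b lie between -0.19 and 0.20.

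All 5 complexes shared this pattern. Complex I had median differences of 0.06, 0.02 and 0.78 in replicates 1, b and c. The 4 genes of complex II had 0.11, 0.10 and 0.69, and complex III had 0.02, -0.07 and 1.14. Complex IV had 0.10, -0.19 and 1.06, and complex V had 0.20, -0.01 and 1.27. The number of members at least 2-fold higher in replicate c was 10 of 36 in complex I, 1 of 4 in complex II, 7 of 10 in complex III, 7 of 12 in complex IV and 13 of 18 in complex V. No test of the difference between complexes was made.

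Both libraries of replicate c contributed. From replicate b to replicate c, the member median was -0.60 in WT and 0.42 in G3C2, against -0.08 and 0.06 over protein-coding genes. In 64 of 81 members WT replicate c was the lowest and G3C2 replicate c the highest of the 4 libraries of the second table, an order found in 25.6% of all tested genes. The order held in 26 of 36 tested members of complex I, 3 of 4 of complex II, 9 of 10 of complex III, 9 of 12 of complex IV and 17 of 18 of complex V. Had the labels been paired across, G3C2 replicate b minus WT replicate c would give a member median of 0.55 and G3C2 replicate c minus WT replicate b one of 0.36. The labels do not say whether libraries with the same letter were grown together.

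**Figure D2:**
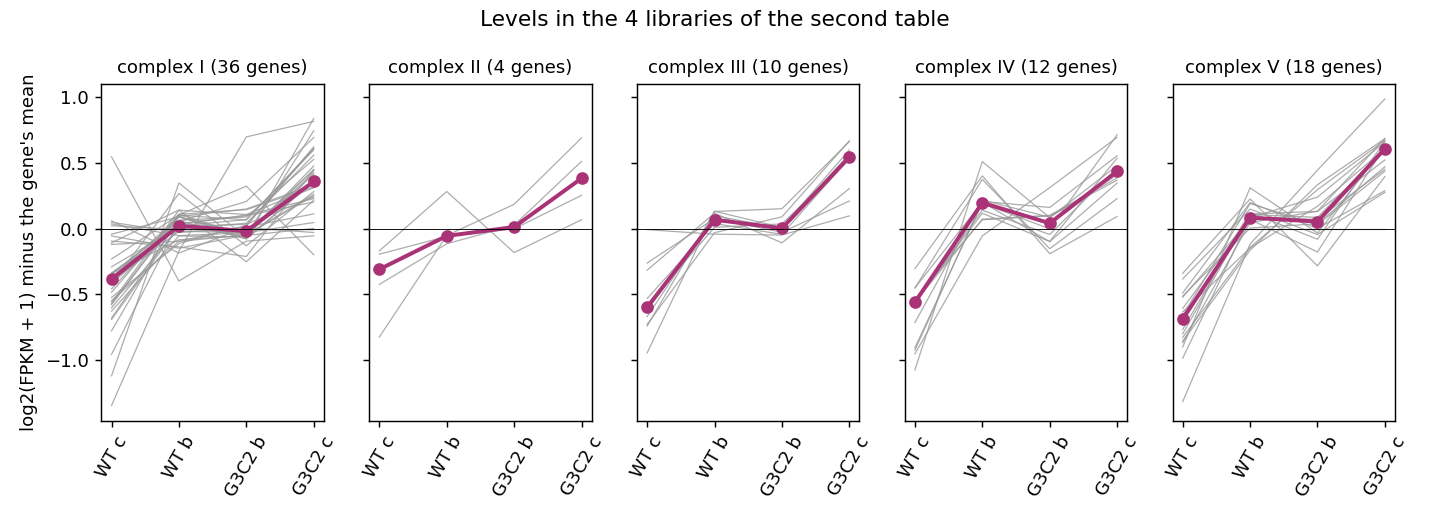
Each line is 1 tested subunit gene in the 4 libraries of the second table, as log2(FPKM + 1) minus the gene's own mean, with 1 panel per complex and the median as a thick line. In 64 of the 81 tested members the lowest library was WT replicate c and the highest G3C2 replicate c.

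Several other measures moved with replicate c. Transcripts of the mitochondrial genome took 13.96% of all FPKM in WT replicate c, against 6.73% in G3C2 replicate c and 4.93% to 8.83% in the other 4 libraries. Transcript length also moved with it. Subunit mRNAs are short, with a median exon length of 2475 bases against 5178 bases for protein-coding genes, where the exon length joins all annotated exons of a gene. Across the 81 members the replicate c difference and the exon length had a Spearman rho of -0.46, and across 12152 protein-coding genes -0.26; these are descriptions over genes measured in the same libraries. In the 2432 protein-coding genes with the shortest exon length the replicate c median was 0.39, and in the 46 members among them it was 1.13. The part of these measures in the replicate c difference was not tested. The deposited scale matters as well: with each library of the second table scaled to its total recovered reads, the replicate c median of the members was 0.59 in place of 0.94, and that of protein-coding genes -0.15 in place of 0.10. Replicate b stayed near 0 for both under that scaling, at -0.01 and -0.02.

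As shares of all FPKM, the 92 genes took 1.36%, 1.64% and 1.09% in WT replicates 1, b and c and 1.49%, 1.66% and 1.87% in G3C2. WT replicate c held the lowest share of the 6 libraries and G3C2 replicate c the highest. ATP5F1B, the catalytic beta subunit of ATP synthase, was the most abundant member in 5 of 6 libraries, and NDUFS5, an accessory subunit of complex I, in WT replicate c. Their levels differed little there, at 181 FPKM for NDUFS5 and 176 FPKM for ATP5F1B.

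The promoters of these genes are known for binding sites of NRF1, ETS-family factors and YY1, so a window from 250 bases before to 50 bases after each RefSeq transcription start (GRCh38.p14) was searched on both strands. RefSeq windows matched 71 of the 92 members, in 84 windows. The letters searched were CCGGAAG for ETS factors, AAGATGGCG for YY1 and, for NRF1, the motif shown in capitals in its windows, with any base allowed at its central variable position. No motif's letters hold another's. NRF1 letters stood in 20.2% of member windows and in 5.78% of 35116 windows in all. For ETS letters these shares were 26.2% and 10.3%, and for YY1 letters 11.9% and 1.75%. Over the 22199 windows of protein-coding genes, NRF1 letters stood in 7.39%, ETS letters in 12.8% and YY1 letters in 2.41%. The windows below are 30-base stretches upstream of the start of members whose values are given in the text, printed on the gene's strand with the motif in capitals. SDHD is shown because both NRF1 and ETS letters stand in 1 promoter, SDHB and UQCRQ as the members of complexes II and III with the largest fitted difference, and ATP5ME as 1 of the 7 members with an unadjusted p under 0.05. COX5B is a nuclear-encoded subunit of complex IV, and UQCRFS1 a catalytic redox subunit of complex III.
SDHD, NRF1 letters (both strands), chr11:112086753-112086782, plus strand: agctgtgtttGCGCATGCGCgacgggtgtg
SDHD, ETS letters (opposite strand), chr11:112086785-112086814, plus strand: ccgcctctcgaCTTCCGGttcacccagcat
SDHB, ETS letters, chr1:17054142-17054171, minus strand: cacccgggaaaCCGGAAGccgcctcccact
UQCRQ, ETS letters, chr5:132866577-132866606, plus strand: aatggtatctcCCGGAAGttacctcacgac
UQCRFS1, NRF1 letters, chr19:29213163-29213192, minus strand: gcgcctcctcGCGCCTGCGCcgtggttgga
COX5B, ETS letters, chr2:97646014-97646043, plus strand: gaagcccgcccCCGGAAGtccctcctgtct
ATP5ME, NRF1 letters, chr4:674431-674460, minus strand: cagcctttgtGCGCGTGCGCctcacgtgac

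The replicate c difference was much the same with and without each motif. Its median was 0.96 in 16 tested members with NRF1 letters and 0.95 in 49 without, and 1.07 in 21 with ETS letters and 0.91 in 44 without. It was 0.83 in 8 members with YY1 letters and 0.99 in 57 without. A match of letters is not a measured binding site, and no test of these medians was made.

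The AU-rich heptamer TATTTAT, of the kind that ZFP36L1 binds, was searched in 3′ untranslated regions. The longest annotated region held it in 14 of 81 tested members (17.3%) and in 36.0% of 12113 tested protein-coding genes that have one. This difference was not tested. The members' regions were shorter, with a median of 632 bases against 1656 bases. Those with the heptamer were ATP5F1A, ATP5MPL, ATP5PB, COX7A2, COX7B, NDUFA10, NDUFA5, NDUFA9, NDUFB4, NDUFB9, NDUFS1, SDHC, UQCRB and UQCRC2. Of these, ATP5MPL, COX7A2, NDUFA10, NDUFA5, NDUFA9, NDUFB4, NDUFS1 and SDHC were higher in G3C2 in all 3 pairs. The others had mixed signs. Among all 81 tested members, 31 were higher in all 3 pairs. Only ATP5MPL and COX7A2 of those with the heptamer also had a log2 fold change of at least 0.5. ATP5MPL lies in a shifted part of chromosome 14, described further on.

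In complex I, the member with the largest difference was NDUFB1, an accessory subunit of the membrane arm. NDUFB1 (ENSG00000183648) had FPKM of 29.2, 11.2 and 4.42 in WT replicates 1, b and c and of 83.1, 21.4 and 23.3 in G3C2. Each G3C2 value was higher than its WT partner. The fitted log2 fold change, from 3 libraries per genotype, was 1.504 with an SE of 0.30 (limma adjusted p = 0.154). Without replicate c it was 1.17 (limma adjusted p = 0.00981) and without replicate b 1.82 (limma adjusted p = 0.00618), fits in which 1 residual degree of freedom is left per gene. Over all tested genes the fit without replicate c called 2.99% higher and 3.05% lower, and over members 3 and 3 of 81. The fit without replicate b called 0.4% higher and 1.01% lower, and over members 2 and 0. NDUFB1 lies in a shifted part of chromosome 14, described further on.

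NDUFB6, another accessory subunit of the membrane arm, was the other complex I member that was higher in 3 of 3 pairs with a log2 fold change of at least 0.5. Its FPKM were 56.7, 51.8 and 25.2 in WT and 70.03, 57.6 and 81.2 in G3C2, and the difference came mostly from replicate c (0.30, 0.15 and 1.65 by pair). The fitted value was 0.70 (SE 0.32, limma adjusted p = 0.408). At the other end, NDUFA13 was low throughout, at 2.40, 1.23 and 3.30 FPKM in WT and 0.947, 1.75 and 1.83 in G3C2, with no common direction (-0.81, 0.30 and -0.60).

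The core subunits of complex I, which carry the flavin, the iron-sulfur clusters and the quinone site, differed less than the accessory ones in replicate c. Their medians over 7 genes were -0.24, -0.14 and 0.05 in replicates 1, b and c, against 0.09, 0.03 and 0.87 over 29 accessory genes. This was not tested. In at least 1 of the tables, 4 of the 7 (NDUFS1, NDUFS3, NDUFS7 and NDUFV2) were near 0, where the log2(FPKM + 1) scale leaves little room. The core genes also had the greater exon length, with a median of 4523 bases against 1889 for the accessory genes. Across the members the replicate c difference fell with exon length, so the 2 groups differ in more than their role. NDUFV1, which binds the NADH, had FPKM of 156, 40.7 and 34.0 in WT and 105, 30.7 and 42.9 in G3C2. G3C2 was thus lower in replicates 1 and b and higher in c. Without replicate c NDUFV1 was called lower (-0.48, limma adjusted p = 0.0448), as were 3.05% of all tested genes. In all libraries its fitted value was -0.21 (limma adjusted p = 0.691). NDUFS8, an iron-sulfur subunit, was nearly equal in replicates 1 and b and apart in c, at 69.1, 29.02 and 20.7 in WT and 71.2, 25.7 and 35.1 in G3C2.

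Complex II, succinate dehydrogenase, has 4 subunits, and they did not move as 1 block. SDHA, the flavoprotein that oxidises succinate, had FPKM of 85.8, 16.1 and 11.5 in WT and 69.6, 11.4 and 13.7 in G3C2. SDHB, the iron-sulfur subunit, had 172, 37.0 and 21.2 in WT and 190, 43.7 and 62.5 in G3C2, higher in every pair. SDHD, a membrane anchor, had 112, 25.9 and 20.7 in WT and 118, 28.7 and 40.6 in G3C2. The fitted log2 fold changes were -0.18 (SE 0.18, limma adjusted p = 0.698) for SDHA and 0.63 (SE 0.29, limma adjusted p = 0.416) for SDHB. SDHA was lower relative to the member median of the same pair in all 3 pairs, by -0.38, -0.46 and -0.70. SDHC, the other anchor, had pair differences of 0.16, 0.06 and 0.45.

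In complex III the largest fitted difference was that of UQCRQ, a small subunit near the cytochrome b core. Its FPKM were 86.0, 143 and 67.4 in WT and 108, 146 and 208 in G3C2, close in replicate b and apart in c. The log2 fold change was 0.65 (SE 0.33, limma adjusted p = 0.450). UQCR10, another small subunit, had 108, 112 and 68.5 in WT and 118, 122 and 182 in G3C2, for a fitted value of 0.55 (SE 0.29, limma adjusted p = 0.465). CYC1, the cytochrome c1 subunit that hands electrons to cytochrome c, was slightly lower in G3C2 in replicates 1 and b and higher in c, at 323, 255 and 139 in WT against 290, 234 and 353 in G3C2. UQCRFS1, the Rieske iron-sulfur subunit, was close between genotypes in replicates 1 and b and higher in G3C2 in c, at 61.0, 68.5 and 39.8 in WT and 63.5, 63.9 and 95.3 in G3C2. UQCRHL, a near copy of the hinge subunit gene UQCRH, was 0.4% to 3.3% of the pair's summed FPKM, and reads of such copies may have been split between them by the authors' counting.

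In complex IV, COX7A2 and COX4I1 differed in opposite directions in replicates 1 and b. COX7A2, the broadly expressed isoform of a small subunit, had FPKM of 217, 65.8 and 34.8 in WT and 317, 85.1 and 111 in G3C2. It was higher in G3C2 in each pair, by 0.55, 0.37 and 1.65, with a fitted log2 fold change of 0.85 (SE 0.29, limma adjusted p = 0.286). COX4I1, the largest nuclear-encoded subunit, had 306, 76.3 and 46.4 in WT and 212, 50.3 and 61.4 in G3C2. It was lower in G3C2 in replicates 1 and b, by -0.53 and -0.59, and higher in c, by 0.40. Its fitted value was -0.24 (SE 0.25, limma adjusted p = 0.695). Without replicate c it was called lower (-0.56, limma adjusted p = 0.0301), as were 3.05% of all tested genes. COX4I1 lies in a shifted part of chromosome 16, described further on.

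NDUFA4 resembled COX4I1, with FPKM of 238, 53.3 and 29.6 in WT and 176, 36.7 and 48.1 in G3C2. Without replicate c it too was called lower (-0.48, limma adjusted p = 0.0436), against the same 3.05% of all tested genes. In all libraries its log2 fold change was -0.09 (SE 0.27, limma adjusted p = 0.902). NDUFA4 lies in a shifted part of chromosome 7, described further on. Of the other complex IV members, COX5A had 134, 68.2 and 42.3 in WT and 131, 58.6 and 91.5 in G3C2. COX5B had 196, 154 and 69.7 in WT and 232, 149 and 196 in G3C2, so that the genotypes were close in replicate b and furthest apart in replicate c.

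Complex IV has tissue-restricted isoforms, and these were nearly silent in both genotypes. COX4I2, the lung isoform, and COX7B2 were listed at 0 in all 6 libraries, as was the ATP synthase gene copy ATP5MGL. COX6A2, an isoform of heart and skeletal muscle, reached at most 0.146 FPKM, COX6B2 0.328 and COX8C 0.168, the last 2 known from testis. COX7A1, the muscle isoform, had 0.335 to 1.04 FPKM, at most 1.1% of its family, and NDUFA4L2, a gene induced by low oxygen, at most 0.101 FPKM. Within the COX7A family, COX7A2 took 62.6%, 71.2% and 66.5% of the summed FPKM in WT and 66.8%, 75.6% and 77.0% in G3C2, and COX7A2L, which is known as a supercomplex assembly factor, took most of the rest.

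ATP synthase held 7 of the 13 members that were higher in 3 of 3 pairs with a log2 fold change of at least 0.5, a pattern found in 5.48% of all tested genes. The opposite pattern, 6.09% of all tested genes, was found in 0 members. Of the 7 ATP synthase genes, ATP5F1B, ATP5MC2, ATP5F1E and ATP5MPL lie in shifted chromosome parts, described further on. Over all complexes, 5 of the 7 members in such parts were higher in this way, and 8 of the 74 outside them. Of the catalytic head, ATP5F1B had FPKM of 827, 285 and 176 in WT and 1372, 404 and 515 in G3C2. Each G3C2 value was higher than its WT partner. The fitted value was 0.92 (SE 0.27, limma adjusted p = 0.244). Its partner ATP5F1A, the alpha subunit present in the same number of copies, had 349, 42.6 and 29.1 in WT and 368, 37.1 and 46.6 in G3C2, for 0.18 (SE 0.21, limma adjusted p = 0.731). ATP5F1E, the epsilon subunit of the central stalk, had 80.2, 42.8 and 26.2 in WT and 114, 58.4 and 76.0 in G3C2. It was higher in each pair, and its fitted value was 0.82 (SE 0.25, limma adjusted p = 0.248).

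Of the membrane part, ATP5MPL, a small proteolipid, had FPKM of 79.1, 15.9 and 6.36 in WT and 129, 24.0 and 35.4 in G3C2. It had the largest replicate c difference of all members, 2.31, with 0.70 and 0.56 in replicates 1 and b, and a fitted log2 fold change of 1.19 (SE 0.36, limma adjusted p = 0.248). Without replicate c, ATP5MPL (0.63, limma adjusted p = 0.0198) and ATP5F1E (0.47, limma adjusted p = 0.0423) were called higher, as were 2.99% of all tested genes. Both lie in shifted chromosome parts. ATP5ME, the e subunit at the dimer interface, was close to 0 in the first table (0.297 in WT and 1.99 in G3C2) and had 14.3 and 6.28 in WT and 16.05 and 21.8 in G3C2 in the second. Its fitted value of 1.003 (SE 0.30, limma adjusted p = 0.245) therefore rests in part on values near the floor, and without replicate b it was called higher (1.43, limma adjusted p = 0.0101).

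ATP5MD, a membrane subunit also known as DAPIT, and ATP5PO, the OSCP subunit at the top of the peripheral stalk, met the pattern mainly through replicate c. ATP5MD had pair differences of 0.02, 0.09 and 1.56, and ATP5PO had 0.29, 0.02 and 1.29. Their fitted values were 0.55 (SE 0.33) and 0.53 (SE 0.27), with limma adjusted p of 0.507 and 0.444. ATP5IF1, which inhibits ATP hydrolysis by the enzyme, was listed at 72.9 and 83.4 FPKM in the first table and at 0 in all 4 libraries of the second.

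The c-ring of ATP synthase is made of 1 mature protein that is encoded by 3 genes with different import sequences. ATP5MC2 took 35.1%, 40.3% and 46.9% of their summed FPKM in WT replicates 1, b and c and 51.0%, 49.1% and 46.9% in G3C2. The share was thus higher in G3C2 in replicates 1 and b and the same in replicate c. ATP5MC1 took 31.4%, 23.9% and 21.3% in WT and 20.6%, 20.02% and 24.1% in G3C2, and ATP5MC3 33.5%, 35.8% and 31.9% in WT and 28.4%, 30.9% and 29.03% in G3C2. In FPKM, ATP5MC2 had 131, 40.2 and 28.4 in WT and 228, 50.4 and 68.7 in G3C2, with a fitted log2 fold change of 0.78 (SE 0.21, limma adjusted p = 0.213). ATP5MC1 had 118, 23.9 and 12.9 in WT and 92.2, 20.6 and 35.3 in G3C2, lower in 2 pairs and higher in c.

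**Figure D3:**
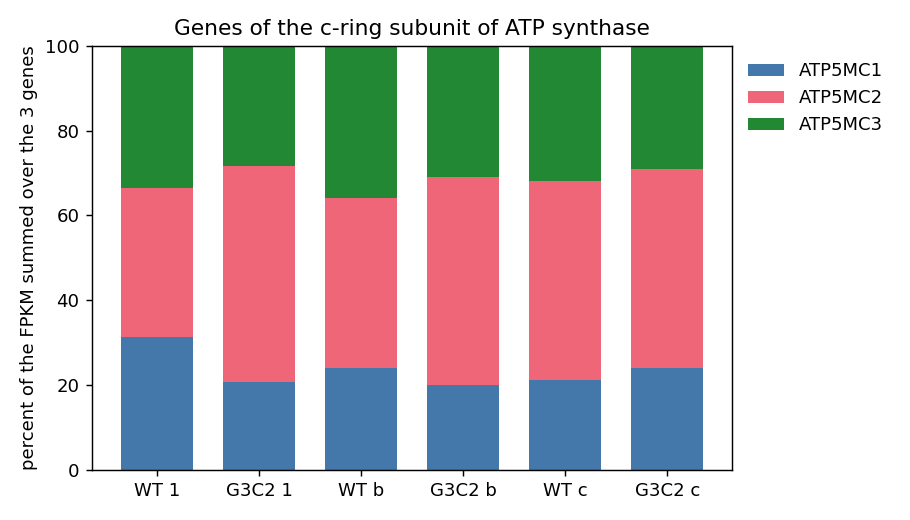
Stacked bars give the percent of FPKM summed over the 3 c-ring genes that each gene takes, in each of the 6 libraries. ATP5MC2 takes 35.1% in WT and 51.0% in G3C2 of replicate 1, 40.3% and 49.1% of replicate b, and 46.9% of both genotypes in replicate c.

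Among the 81 members, 7 lie in parts of chromosomes whose other genes differed together between the genotypes in these same libraries, and 5 of the 7 members with an unadjusted p under 0.05 were among them. NDUFB1 and ATP5MPL lie on distal chromosome 14, where the other 110 protein-coding genes had medians of 0.70, 0.54 and 0.84 in replicates 1, b and c. ATP5F1B and ATP5MC2 lie between 50 and 60 Mb of chromosome 12, where 137 genes had 0.35, 0.27 and 0.40. ATP5F1E lies beyond 50 Mb of chromosome 20, where 78 genes had 0.41, 0.37 and 0.59. COX4I1 lies between 70 and 90 Mb of chromosome 16, where 113 genes had -0.59, -0.38 and -0.29, and NDUFA4 between 10 and 30 Mb of chromosome 7, where 50 genes had -0.45, -0.41 and -0.37. Coordinates are those of GENCODE 29 on GRCh38. The parts were found in earlier work on these libraries, so this is a description, and copy number was not measured. Of the 7 members with an unadjusted p under 0.05, COX7A2 on chromosome 6 and ATP5ME on chromosome 4 lie outside these parts. Leaving out the 7 members in such parts gave medians of 0.08, -0.01 and 0.91 over the other 74, close to those of all 81.

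**Figure D4:**
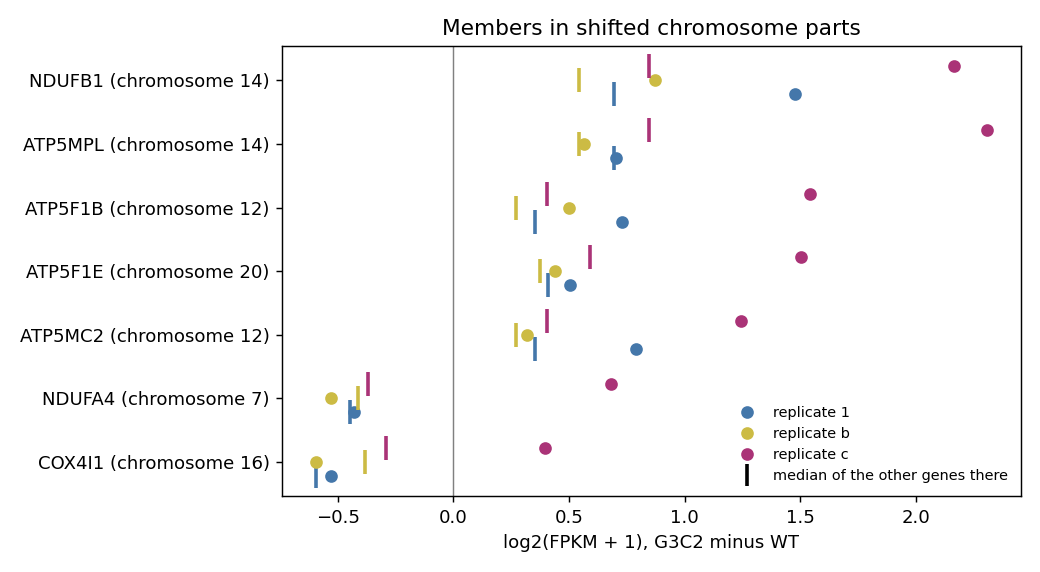
For each member in a shifted chromosome part, points give its difference in log2(FPKM + 1), G3C2 minus WT, on the horizontal axis in each replicate pair, and vertical ticks of the same colour the median of the other protein-coding genes of that part. NDUFB1, ATP5MPL, ATP5F1B, ATP5MC2 and ATP5F1E lie above 0 in all pairs, and COX4I1 and NDUFA4 below 0 in replicates 1 and b only.

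Some members stood apart from the rest in the same direction in all pairs, and others did not. Relative to the member median of the same pair, NDUFB1 lay at 1.40, 0.88 and 1.23, COX7A2 at 0.47, 0.37 and 0.71, and COX4I1 at -0.61, -0.59 and -0.54. NDUFV1 lay at -0.64, -0.39 and -0.61, and NDUFS6, an accessory subunit, at -0.44, -0.39 and -0.23. By contrast, NDUFA13 lay at -0.88, 0.31 and -1.54, and ATP5PD, a peripheral stalk subunit, at 0.14, -0.50 and -0.20. Across the 81 members the differences of replicates 1 and b had a Pearson r of 0.61 (Spearman rho 0.47), those of 1 and c 0.55 (0.46), and those of b and c 0.22 (0.15). Over the 63 members outside the shifted parts and with similar levels in both tables, the Pearson r was 0.29, 0.45 and -0.05. These correlations run over genes measured in the same libraries and are descriptions.

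The tables themselves differed for some members. After each table's general scale was taken into account, 11 of the 81 differed by at least 8-fold in level between the tables. NDUFA6 had 115 and 110 FPKM in the first table and at most 2 recovered reads per library in the second, and NDUFS3, a subunit of the peripheral arm, had 114 and 86.4 FPKM and again at most 2 reads. UQCRC2, a core subunit of complex III, had 179 and 188 FPKM in the first table and 1.42 to 1.67 in the second. The others were NDUFA3, NDUFS1 and ATP5IF1, higher in the first, and ATP5ME, COX8A, NDUFA2, NDUFB8 and NDUFS7, higher in the second. COX8A, for example, had 36.0 and 46.7 FPKM in the first table and 125 to 387 in the second. Without these 11, the median fitted log2 fold change of the other 70 members was 0.34. A comparison of the genotype difference between the tables can detect little. The first table holds 1 pair, so all spread comes from the second, where pairs b and c differed. A lack of calls in it is therefore not agreement between the tables. A test of whether the genotype difference itself differed between the tables (limma interaction) called 0 of the 15001 genes, with 2.86% at an unadjusted p under 0.05, and 0 members were below that value.

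Lists of genes that act with the subunits also had medians above 0 in replicate c, whereas the mRNAs of the mitochondrial genome had one below 0. None of the genes in the lists was called, against the background of 0.0467%. The 19 tested assembly factors of complex I had medians of -0.36, -0.03 and 0.51 in replicates 1, b and c, the 23 of complex IV had -0.15, -0.12 and 0.64, the 6 of complex III had -0.21, 0.13 and 0.79, the 4 of complex II had 0.09, 0.01 and 0.72, and the 3 of complex V had -0.07, -0.25 and 0.44. Regulators of mitochondrial gene expression and biogenesis (13 genes) had -0.24, -0.04 and 0.62, enzymes of the citric acid cycle (13 genes) -0.09, -0.08 and 0.63, and cytochrome c with coenzyme Q synthesis (12 genes) -0.14, -0.06 and 0.41. The 13 mRNAs encoded by the mitochondrial genome had -0.09, -0.36 and -0.49, and 10 of them were lower in G3C2 in 3 of 3 pairs.

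In the second table CYCS, TFAM and CS were lowest in WT replicate c and highest in G3C2 replicate c, the order of most subunits. CYCS, cytochrome c itself, had FPKM of 387, 80.8 and 48.1 in WT and 273, 61.0 and 123 in G3C2, lower in 2 pairs and higher in c. TFAM, which packages mitochondrial DNA and helps start its transcription, had 104, 25.5 and 19.4 in WT and 106, 24.5 and 38.5 in G3C2. YY1, a transcription factor whose letters were searched in the promoters, had 51.5, 13.996 and 8.99 in WT and 84.0, 20.8 and 24.9 in G3C2. It was higher in each pair, for 0.87 (SE 0.20, limma adjusted p = 0.185). YY1 is a gene of chromosome 14, whose distal part was among the shifted ones. Its pair differences were 0.69, 0.54 and 1.37, against medians of 0.70, 0.54 and 0.84 for the genes of that part. Whether YY1 shares their shift was not tested. COX17, a copper chaperone for complex IV, was likewise higher in each pair, by 0.74, 0.65 and 1.99, for 1.13 (SE 0.28, limma adjusted p = 0.197). Of the 23 tested assembly factors of complex IV, 3 were higher in 3 of 3 pairs (background 17.8%) and 2 lower (background 18.6%). CS, citrate synthase, had 304, 38.1 and 27.3 in WT and 373, 42.4 and 61.4 in G3C2. Its gene is on chromosome 12, which also holds shifted parts. MT-CO1, the mitochondrially encoded catalytic subunit of complex IV, ran the other way, with 7018, 3988 and 5998 in WT and 6384, 3316 and 3728 in G3C2, and its log2 fold change was -0.36 (SE 0.36, limma adjusted p = 0.687). MT-CO2, its partner, had 5437, 3570 and 5614 in WT and 5058, 2449 and 2754 in G3C2.

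**Figure D5:**
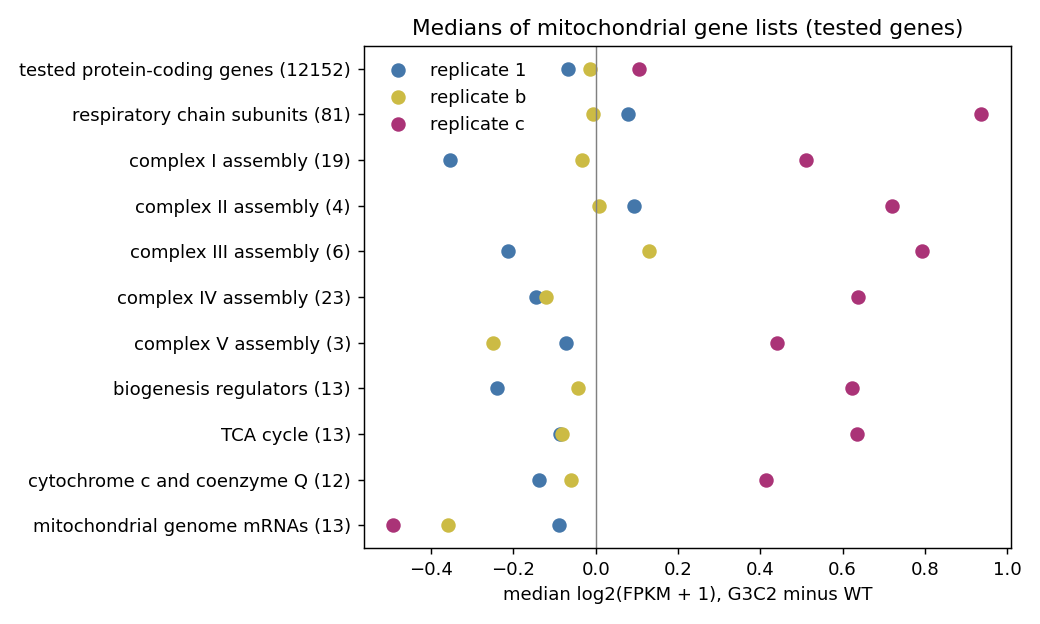
Points give the median difference in log2(FPKM + 1), G3C2 minus WT, of the tested genes of each list in replicates 1, b and c, for the subunits, the lists of related genes and all protein-coding genes. The nuclear-encoded lists lie between 0.41 and 0.94 in replicate c, and the mRNAs of the mitochondrial genome at -0.49.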

How the data were processed

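Values of 6 U2OS poly(A) libraries stood in 2 tables, which the authors deposited as FPKM (per the file headers) and which have separate scales. Per the submitters' processing notes, CASAVA and HISAT2 were used with GRCh38.p12; how reads were counted, and whether by strand, is not given in the sources used here. Groups came from the sample titles. Nothing in the labels says which libraries came from which culture occasion, so p-values rest on the spread among the libraries, which may be partly technical.

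Members and lists were chosen with earlier results of these data known. Genes were matched to GENCODE 29 (56868 of 56982 identifiers). In the second table, 97.3% to 97.4% of values were whole reads within 0.02 reads, which gave its depth; the tested members' mean counts per library had a median of 1912 reads. The first table gave no such steps, and its depth is unknown.

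The test was limma 3.58.1 (R 4.3.3) on log2(FPKM + 1) with genotype and table as terms and a mean-variance trend, adjusted by Benjamini-Hochberg over 15001 genes. Fold changes on this scale understate those of low genes. Same-numbered libraries deviated together (r = 0.93, 0.80 and 0.60), which counted as pairing, although separate tables alone give such values; within the second table r was -0.17. Named members were those past adjusted p 0.05. Others had 1 sign in all pairs and a log2 fold change of at least 0.5 in size. Also named were the extremes of each complex, its core subunits or, in complex IV, selected nuclear-encoded subunits, and isoform families. Members in shifted chromosome parts, ATP5IF1 and, of each list, up to 2 of its most abundant genes were named as well. Some further results are not reported. Other genes were named after their values were seen. Alternatives were another pseudocount, other filters, scalings and models, a replicate block, the second table alone, and libraries left out; the scaling to total reads and the removal of members unlike between tables were added after seeing the data. Python 3.11.15 with pandas 2.3.3, scipy 1.17.1 and matplotlib 3.10.9 did the rest.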

Additional observations from a re-analysis of the deposited data

How the results depend on the processing

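No member was called in any of the 12 settings that kept all libraries of the tables used or the second table alone, nor with any single library left out; with a replicate pair left out, 0 to 3 members were called higher and 0 to 3 lower. Over all genes, the 3 higher calls became 5 with equal medians, 1 with the second table scaled to total reads, and 0 with limma-voom on recovered reads (548 at an unadjusted p under 0.05), with no filter (1187), with no table term (73), with the replicate block (785), and in the second table alone without (539) and with (360) the replicate block. The 4 lower calls became 1 with a mean FPKM of at least 5 or with the replicate block, and 0 with no filter (1803), with no table term (150), and in the second table alone without (571) and with (493) the block. With replicates left out, these counts ran from 0 to 448 and from 0 to 457. The cause was not tested.

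The replicate block left the members' median at 0.32 and called 0 of them. Other settings gave medians from 0.17 (quantile normalization) to 0.49 (limma-voom), and libraries left out gave 0.05 to 0.52. The latter ranges were 0.06 to 0.42 for complex I, 0.11 to 0.41 for complex II, -0.01 to 0.56 for complex III, -0.06 to 0.59 for complex IV and 0.09 to 0.66 for complex V. NDUFA4 turned to 0.087 with limma-voom and to 0.077 in the second table alone, with or without the block, and UQCRC2 to -0.019 with the second table scaled to total reads. With libraries left out, the fitted log2 fold change crossed 0 for these members, most of them without replicate c: ATP5F1A (-0.060 to 0.37), ATP5MC1 (-0.28 to 0.59), ATP5MC3 (-0.071 to 0.56), COX5A (-0.13 to 0.53), COX6A1 (-0.15 to 0.45), COX6B1 (-0.020 to 0.61), COX7B (-0.27 to 0.73), CYC1 (-0.14 to 0.61), NDUFA4 (-0.48 to 0.13), NDUFS8 (-0.064 to 0.39), UQCRFS1 (-0.020 to 0.65), UQCRH (-0.037 to 0.58) and UQCRHL (-0.0092 to 0.57). Members with few reads, 5 of the 81 with under 100 per library in the second table, could show little difference there.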
